A study of Bos taurus with 16 samples.

Results

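Peripheral blood of dairy cows that drank water alone for 60 days was compared with blood drawn at day 0, on 8 of the 16 arrays of the series. The members are the 4 arrays titled as untreated at day 60 and the 4 titled as day 0, chosen by title alone. All 16 arrays are Agilent bovine one-colour oligonucleotide arrays hybridised with Cy3-labelled cRNA from whole blood of lactating female Holstein Friesian cows. In all, 10 cows were enrolled, 5 per arm, and the other arm took a commercial microbial supplement of yeast and bacterial fermentation products. The 4 day 0 arrays hold blood taken before any supplement, and their source label carries the letters of the microbial pack, so whether that pool also holds the untreated cows is not settled. Both groups were bled from the jugular vein, kept for 30 min at 37 °C in 5% CO2 with no lipopolysaccharide, and pooled as RNA within a group before labelling. The 4 arrays of a group are therefore repeats of 1 pool. The p-values measure the spread between repeat arrays, not between cows, and time, animals and pool cannot be told apart.

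Whole blood RNA comes from neutrophils, monocytes, lymphocytes, platelets and young red cells. Its most abundant messages encode ribosomal proteins, mitochondrial enzymes, actin-binding thymosins, major histocompatibility complex (MHC) molecules and, where red cells are kept, globins. Genes that mark skin, gland, liver or nerve are mostly low there, so a list of them was measured beside the blood lists. Whether each member of that list is silent in blood cells was not checked. In RNA from a bulk sample, fewer cells of a type and less RNA per cell cannot be told apart.

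The arrays differed before any gene was compared. Between 8.26% and 23.0% of spots were well above background on the day 0 arrays, the lowest value being replicate 4. On untreated replicates 2 to 4 the shares were 17.7%, 17.9% and 13.1%, and replicate 1 was the lowest of that group. The group means of 17.9 ± 6.59% and 15.2 ± 3.06% (SD, n = 4 each) did not differ beyond their spread (exact permutation test, two-sided, p = 0.486, smallest possible 0.0286). The dimmest signal that was called above background was 31.5 to 38.4 scanner units at day 0 and 78.3 to 129 units on the untreated arrays. A spike-in control probe, E1A_r60_1, read 17966, 2715, 1128 and 249 scanner units on day 0 replicates 1 to 4. On untreated replicates 1 to 4 it read 9.16, 19.1, 8.51 and 15.3 units, so the groups did not overlap (exact permutation test, two-sided, p = 0.0286, the smallest possible). Whether the control mix was added alike to both groups' labelling reactions is not given in the sources used here, so this reading may say nothing of array quality. The 100 brightest probes carried 43.6% to 46.8% of all net signal on the day 0 arrays and 14.9% to 23.2% on the untreated arrays, again with no overlap. Signal also depended on place. Split into 10 bands of rows, the outer bands (1, 2, 9 and 10) had 13.9% to 38.0% of their probes above background at day 0 against 4.53% to 13.3% in the inner bands (3 to 8), while on the untreated arrays the shares were 11.4% to 18.1% and 11.4% to 18.7%. Day 0 and untreated arrays sat on separate slides scanned on separate days, so the groups cannot be told apart from slide or scan day, and the part of these differences in the results below was not tested beyond the values given.

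**Figure D1:**
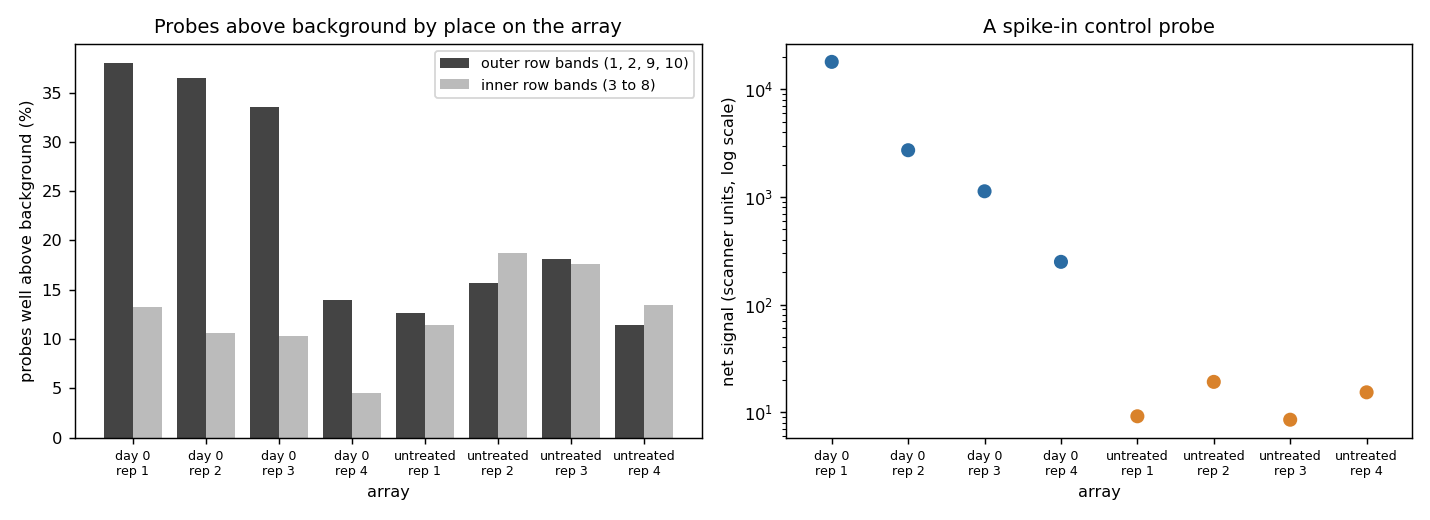
Left, bars give the percent of probes well above background on each of the 8 arrays, in outer (dark) and inner (light) row bands; every day 0 array has a higher share in the outer bands, and the untreated arrays have similar shares in both. Right, points give the net signal of spike-in control probe E1A_r60_1 on a log axis; the 4 day 0 arrays lie between 249 and 17966 scanner units and the 4 untreated arrays between 8.51 and 19.1.

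Levels below are log2 net signals after each array was divided by its 75th percentile over the 806 probes that were well above background on all 8 arrays. A level of 0 is thus that percentile. Values under the highest of the arrays' detection limits, -3.33, were set to it and are called the floor; they have no order among themselves. A gene was tested when at least 1 of its probes was well above background on every array of 1 group or of both. The brightest of such probes stood for the gene. The threshold was an adjusted p under 0.05 (limma, Benjamini-Hochberg) together with a fold of at least 2. Of 3932 genes tested, 1886 passed (48.0%), 1143 higher in untreated blood (29.1%) and 743 lower (18.9%). The groups did not overlap for 2181 genes (55.5%). The median log2 difference of all tested genes was 0.47 and depended on the scaling, as did the balance of rises and falls. With the percentile taken over all probes 723 genes rose and 1555 fell (median -0.46), with the median of detected probes 865 and 1160 (0.16), by quantile normalization 992 and 1148 (0.31), by cyclic loess 751 and 934 (0.20), and with each row band scaled by itself 1568 and 880 (0.68). Among the scalings fitted with limma, the extremes were 43 and 249 with the median over all probes (0.10) and 414 and 84 on the processed signal (0). By fold alone, the authors' deposited table of group values, whose centring is not stated, gave 2467 and 416 (1.57). Every list below is therefore read against the same counts for all genes. Without day 0 replicate 4, and with scaling and filter redone, 7340 genes could be tested, of which 864 rose (11.8%) and 1632 fell (22.2%), against 1036 and 786 when that array was only left out of the fit. Counts of a list redone in this way are given beside it. A gene above background on all arrays of only 1 group entered the test through the group where it is high, so the counts and medians of lists partly restate that filter and are descriptions.

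The largest falls were in the most abundant messages of day 0 blood. The first 30 of the 60 bases of 6 probes are shown because the rises and falls also differed in base composition, with G and C in capitals, as the deposited annotation gives them; where they lie in the genome is not given here.
RPS29: CatCCaGCaCatCaaCCttaGGCGGaaaCa
ATP6: GCtataatCCaaGCCtatGtattCaCtCtC
TMSB10: CGGaCtGCCaaatttCtCCGGtttGCCCtG
MMP25: tGCGGGGCGGCCttCGGtGCtCCtCCtGCC
SDHAF1: GattCCtGCtCCtttCCCttCtCaaGaCtG
RPL14: CtGGCaaGaaaGCatGaGtGCataaGaGGC
The first 3 are the largest falls and the last 3 the largest rises among genes measured on all 8 arrays. Over the whole 60 bases the G and C content was 35.0%, 41.7% and 35.0% in the falls and 73.3%, 45.0% and 36.7% in the rises. It ranged from 35.0% to 45.0% over the 10 largest falls and from 36.7% to 78.3% over 9 of the 10 largest rises. Over all tested genes the median was 45.0%, with 46.7% among genes that rose and 43.3% among those that fell. Across all non-control probes, signal and G and C content had a Spearman correlation of 0.053 to 0.060 on the day 0 arrays and of 0.14 to 0.28 on the untreated arrays, as a description across probes.

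RPS29, a protein of the small ribosomal subunit, had levels of 4.30, 4.19, 4.50 and 4.37 on day 0 replicates 1 to 4 and of -3.05, -3.28, -3.15 and -2.57 on the untreated arrays. It was among the brightest probes on every day 0 array and close to the floor on every untreated one. Its log2 difference was -7.35 ± 0.16 (standard error, n = 4 against 4; adjusted p = 2.15e-07, limma). TMSB10, an actin-sequestering thymosin, had levels of 5.02, 5.10, 5.16 and 5.00 at day 0 and of -1.77, -1.19, -1.33 and -1.09 in untreated blood, a log2 difference of -6.42 ± 0.15 (adjusted p = 2.20e-07). All 4 untreated arrays lay below all 4 day 0 arrays for both genes. The mitochondrially encoded subunits ATP6 of ATP synthase and COX1 of cytochrome c oxidase fell, with log2 differences of -6.45 and -6.20, as did RPS3, of the small ribosomal subunit, at -6.22. IFITM2, an interferon-induced membrane protein, had a log2 difference of -6.02. Those of RPLP1 and RPL21, of the large ribosomal subunit, were -5.79 and -5.75, that of the MHC class I gene BOLA-NC1 was -5.73 and that of PLAC8B was -5.63, each with an adjusted p of at most 0.000718. Within the arrays, the RPS29 probe stood at percentile 99.9 of all probes at day 0 and at 88.9 in untreated blood, and that of TMSB10 at 100.0 and 96.2. These genes were thus still measured on all untreated arrays, in the upper part of a narrower range of signal.

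Other abundant day 0 messages were not well above background on any untreated array, and only a bound on the fold can be given. For it, a dim array enters at its lowest signal called above background, or at the probe's measured signal where that is larger, and the mean over those arrays is set against the mean of the bright group. The bounds here and below hold only for this signal and scaling. ARPC2, a subunit of the Arp2/3 complex that branches actin filaments, had levels of 1.96, 2.05, 2.15 and 1.77 at day 0 and was at least 58.5-fold lower in untreated blood. RPL9, of the large ribosomal subunit, was at least 57.1-fold lower, TKT, the transketolase of the pentose phosphate pathway, and RPS26 each at least 49.2-fold, and TMSB4, the thymosin beta 4 gene, at least 47.0-fold. On the processed signal the log2 differences of ARPC2, RPL9, TKT, RPS26 and TMSB4 were -2.59, -3.65, -3.05, -4.20 and -3.48, so these bounds do not hold there. In all, 804 of the tested genes were dim on every untreated array, and 651 were dim on every day 0 array.

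The largest rises began from levels near the floor. MMP25, a membrane-anchored metalloproteinase known from neutrophils, had levels of -2.99, -3.33, -3.33 and -1.14 on day 0 replicates 1 to 4 and of 1.48, 1.41, 1.38 and 1.11 on the untreated arrays. All untreated arrays lay above all day 0 arrays, and day 0 replicate 4 lay highest of its group. The log2 difference was 4.04 ± 0.50 (adjusted p = 0.000413, limma). SDHAF1, an assembly factor of succinate dehydrogenase, had levels of -3.33, -3.33, -3.33 and -2.91 against 0.76, 0.00, 0.35 and 0.62, a log2 difference of 3.66 ± 0.19 (adjusted p = 6.22e-06). RPL14, of the large ribosomal subunit, rose by 3.34 ± 0.82 and ranged from -0.72 to 2.79 over the untreated arrays; with array weights it had an adjusted p of 0.22. KLHDC7A rose by 3.27 ± 0.70 and UBL7, a ubiquitin-like protein, by 3.18 ± 0.38. DBP, a transcription factor of the circadian output, had levels of -1.88, -2.25, -1.48 and -0.33 at day 0 and of 1.22, 2.12, 1.36 and 1.84 in untreated blood, a log2 difference of 3.12 ± 0.44. INSM1, a zinc-finger factor of neuroendocrine cells, rose by 3.11, TAGLN3, a transgelin of nerve cells, by 3.03 and FILIP1, which binds filamin A, by 2.90. For 5 of these 9 genes at least 1 day 0 array was at the floor, so their size depends on it: with each array's own detection limit as the floor the 9 differences ran from 2.90 to 5.23. On the processed signal, after the scanner software's spatial correction, 7 of the 9 did not pass: MMP25 had a log2 difference of 0.49, SDHAF1 of 0.85, UBL7 of 1.23 and RPL14 of 2.40, and KLHDC7A, DBP and INSM1 lay slightly below 0. TAGLN3 (4.30) and FILIP1 (2.79) still passed.

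Among genes dim on every day 0 array, PRLR, the prolactin receptor, was at least 62.2-fold higher in untreated blood, PGM5, a phosphoglucomutase-related protein of cell contacts, at least 46.5-fold, SAAL1 at least 45.7-fold, CRABP1, which binds retinoic acid, at least 44.4-fold and EMC3, of the endoplasmic reticulum membrane complex, at least 42.1-fold. With the floor applied to both groups, the log2 differences of PRLR, PGM5, SAAL1, CRABP1 and EMC3 were 2.97, 2.67, 2.53, 2.48 and 2.64. On the processed signal they were 2.96, 1.81, 0.41, 2.47 and -0.36, so these bounds do not hold there. The prolactin receptor levels on the untreated arrays were spread from -1.73 to 0.45.

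**Figure D2:**
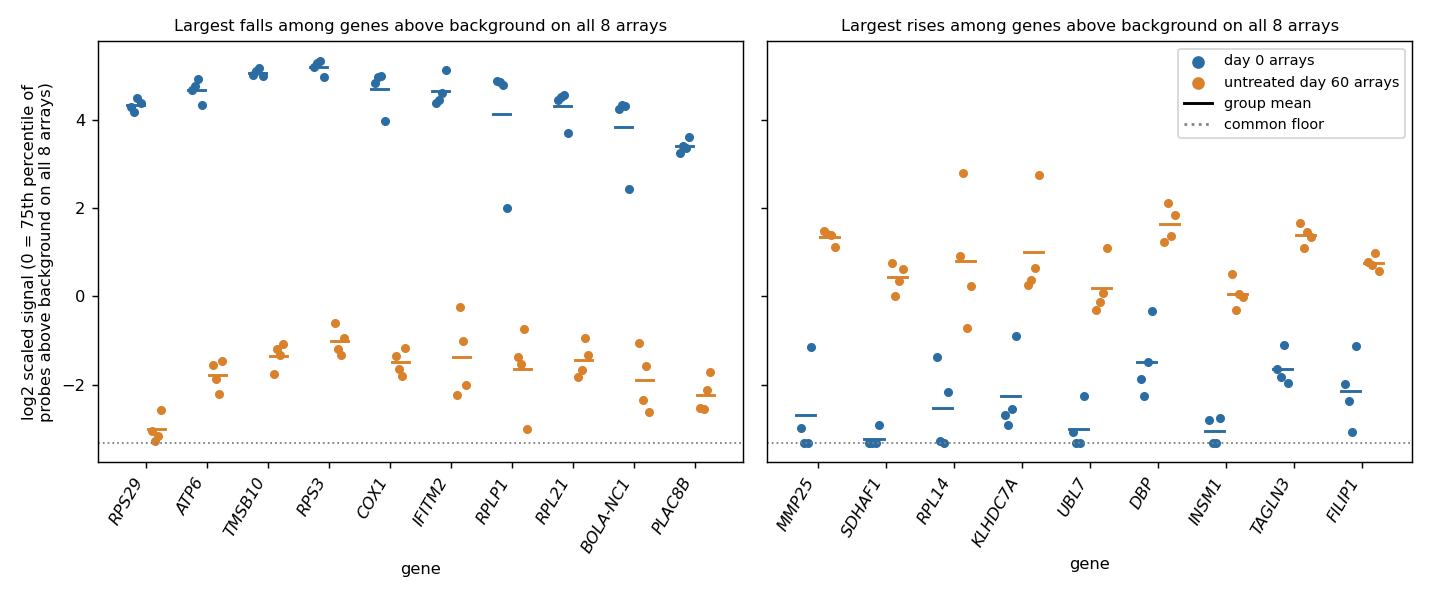
Points give the log2 scaled signal of the 10 largest falls (left) and 9 of the 10 largest rises (right) on each day 0 array (blue) and each untreated array (orange), replicates 1 to 4 from left to right within a group; short lines are group means and the dotted line is the floor at -3.33. The groups do not overlap for any of these genes, and the falls start from day 0 means of 3.40 to 5.20 while the rises start from -3.23 to -1.49.

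Direction went with place on the array. In the inner bands 835 of 1858 tested genes rose (44.9%) and 76 fell (4.09%), whereas in the outer bands 308 of 2074 rose (14.9%) and 667 fell (32.2%). The median log2 difference was 1.04 in the inner and -0.35 in the outer bands, and with each band scaled by itself it was 1.40 and -0.43. Of 9 of the 10 largest rises 8 had their probe in the inner bands, and of the 10 largest falls 8 had theirs in the outer bands. Probes of the same gene allowed a direct look: 215 genes had tested probes in both places. The inner probes gave the higher difference in 175 of these genes, with a median gap of 1.76 on the log2 scale. In 95 genes the outer probes lay below 0 and the inner probes above it. Over all 434 genes with more than 1 tested probe, 175 had a probe whose sign opposed the brightest one. Genes with such a probe are left out of the named genes below.

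**Figure D3:**
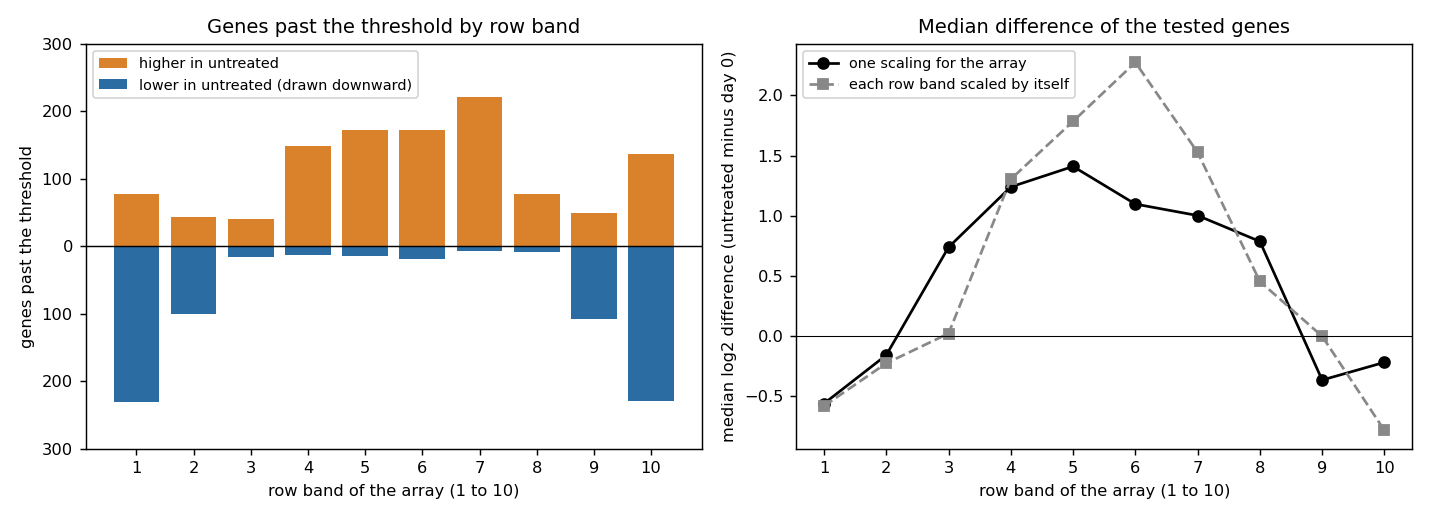
Left, bars count genes past the threshold in each of 10 row bands, higher in untreated blood upward and lower downward; rises outnumber falls in bands 3 to 8 and falls outnumber rises in bands 1, 2, 9 and 10. Right, the median log2 difference of the tested genes per band, with 1 scaling for the array (circles) and with each band scaled by itself (squares); the circles run from -0.56 in band 1 to 1.41 in band 5.

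**Figure D4:**
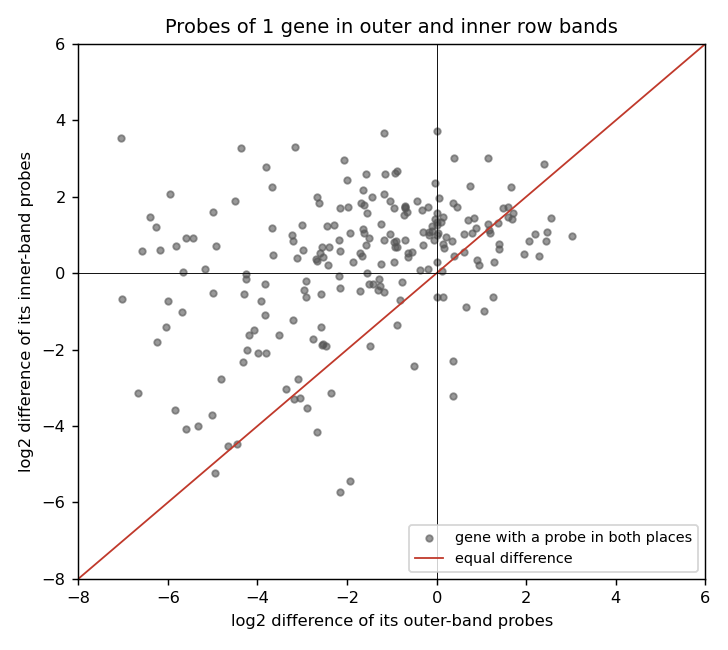
Each point is 1 of 215 genes with tested probes in both outer and inner row bands, with the mean log2 difference (untreated minus day 0) of its outer probes on the x axis and of its inner probes on the y axis. The red line marks equal differences; 175 genes lie above it.

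The ribosomal proteins, which form the machine that makes protein, fell as a group in both places. Of 79 genes on the array, 72 were tested, and 42 fell, 3 rose and 27 did not pass, with a median log2 difference of -3.81 against 0.47 for all genes. Of the 72, 31 entered only through the day 0 arrays and 8 only through the untreated ones. With all steps redone without day 0 replicate 4, 43 of 73 fell and 1 rose. In the outer bands 31 of 40 fell, where 32.2% of all genes did, and in the inner bands 11 of 32 fell, where 4.09% did. After RPS29 the next largest fall, among members with no probe of opposite sign, was that of RPSA, of the small subunit, at -6.29 ± 0.75. Its day 0 levels were 3.80, 3.75, 3.73 and 0.56 on replicates 1 to 4, and 1 untreated array was above background. RPL14 and RPS28 rose, RPS28 by 1.96 ± 0.36, and the RPS28 call was lost (adjusted p = 0.25) with all 16 arrays in the fit. The list's median stayed below 0 under every scaling and floor tried, from -5.58 to -2.40 as a log2 difference. In within-array ranks, turned into normal scores and thus on another scale, it was -1.30. Summed over its genes, the scaled signal was 368 to 789 on the day 0 arrays and 90.9 to 172 on the untreated arrays. Of translation factors, which load and move the ribosome, 14 of 21 tested fell and 3 rose (median -2.61). EEF1G, of elongation factor 1, fell by 5.50 ± 0.17 and PABPC1, the poly(A)-binding protein, fell by 5.44 ± 0.28, while EIF3K rose by 2.80 ± 0.43 and EIF4EBP1, an inhibitor of cap-dependent initiation, by 1.94 ± 0.44. In this list 13 of 15 outer genes fell and none of them rose, against 1 fall and 3 rises among 6 inner genes, where 44.9% of all genes rose. When redone without day 0 replicate 4, 17 of 28 fell and 3 rose.

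Of oxidative phosphorylation genes, which code for the respiratory chain, 18 of 29 tested fell and 1 rose (median -2.22), with 16 falls among 22 outer and 2 among 7 inner genes; 25 of the 29 entered only through the day 0 arrays. ATP5F1A, the alpha subunit of ATP synthase, was at least 29.1-fold lower and NDUFV2, of complex I, at least 19.3-fold lower in untreated blood. SDHD, of complex II, was dim on all day 0 arrays and by the same kind of bound at least 18.1-fold higher. Its log2 difference was only 1.19 with the floor applied to both groups, and -0.45 on the processed signal. Glycolysis genes gave 3 falls and 1 rise of 8 (median -1.72): LDHB, a lactate dehydrogenase subunit, was at least 30.6-fold lower, ALDOA, an aldolase, fell by 2.68 ± 0.43 and PGK1, a phosphoglycerate kinase, rose by 1.89 ± 0.41. Of lipid metabolism genes 5 of 12 fell and none rose (median -0.95), with all 12 in the outer bands, where 32.2% of all genes fell, so the count lies near the share for all genes; FASN, the fatty acid synthase, was at least 6.95-fold and ELOVL5, a fatty acid elongase, at least 7.45-fold lower. Redone without day 0 replicate 4, falls and rises were 24 and 1 of 40 for oxidative phosphorylation, 7 and 1 of 13 for glycolysis and 8 and 0 of 22 for lipid metabolism. Over all tested genes 18.9% fell and 29.1% rose, and 22.2% and 11.8% when redone.

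Proteasome genes, which degrade tagged proteins, split by place, with falls mainly among the outer genes and rises only among the inner ones. Of 9 outer genes 7 fell, where 32.2% of all genes did. Of 7 inner genes 4 rose and 1 fell, and the rises lie near the 44.9% of all inner genes that rose. The rises were not kept when all steps were redone without day 0 replicate 4, where 14 of 28 fell and none rose. PSME2, an activator subunit, was at least 22.8-fold lower, PSMB4 fell by 3.11 ± 0.54 and PSMD6 rose by 2.20 ± 0.43. Of 18 splicing factors 5 fell, all among 13 outer genes, and 2 rose, both among 5 inner genes. Both counts lie near the shares of all genes, 32.2% of outer genes falling and 44.9% of inner genes rising. When redone, 12 of 27 splicing factors fell and 2 rose. HNRNPA1 and SRSF6 were at least 4.66-fold and 4.56-fold lower, and U2AF2 and SNRPD2 rose by 3.73 ± 0.57 and 2.75 ± 0.16. In the cytoskeleton and adhesion list 8 of 15 fell and 1 rose (median -1.69), where 18.9% of all tested genes fell and 29.1% rose. When redone, 11 of 21 fell and 1 rose, where 22.2% and 11.8% of all genes did. TMSB10 led, followed by ACTG1, a cytoplasmic actin, which fell by 5.61 ± 0.42. Of heat-shock proteins 4 of 13 fell and none rose (median -0.57), HSP90AA1 being at least 17.5-fold lower. The 3 falls among 8 outer genes lie near the 32.2% of all outer genes that fell, and redone 6 of 19 heat-shock genes fell.

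By the brightest probe of each gene, MHC genes, which show peptides to T cells, fell or did not pass. Of class I and peptide-loading genes 5 of 7 tested fell and none rose (median -3.74), with 3 falls among 4 outer and 2 among 3 inner genes. JSP.1, a class I gene, had levels of 3.74, 3.86, 3.76 and 1.22 at day 0 and of -1.20, -0.68, -0.92 and -3.21 in untreated blood, a log2 difference of -4.65 ± 0.81 (adjusted p = 0.00224). Replicate 4 was the lowest of both groups, and the groups did not overlap. Of class II presentation genes 8 of 13 fell and none rose (median -1.96), all 8 in the outer bands and 0 of 4 in the inner bands. BOLA-DRB3 fell by 4.33 ± 0.23 and BOLA-DQB1 fell by 3.76 ± 0.37. Both medians stayed below 0 under every scaling and floor tried. Redone without day 0 replicate 4, 8 of 11 class I and 9 of 15 class II genes fell and none rose. Over all tested genes 18.9% fell and 29.1% rose, and 22.2% and 11.8% when redone. Of the tested genes, 5 of the 7 and 9 of the 13 entered only through the day 0 arrays. Class I genes are close copies of each other, so a probe may read more than 1 of them. The probes of B2M, of the class I list, disagreed, with a mean log2 difference of -5.59 in the outer and 0.91 in the inner bands. For BOLA-NC1 the values were -2.16 and -5.73.

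**Figure D5:**
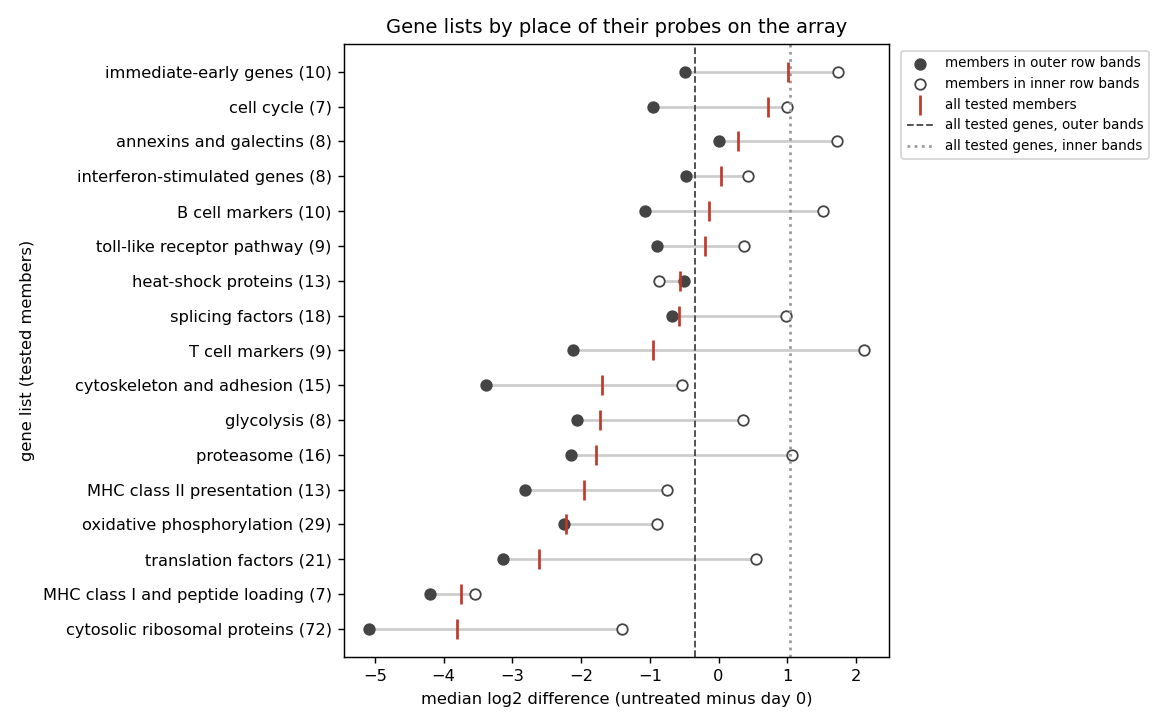
Median log2 difference (untreated minus day 0) of the tested members of 17 gene lists with at least 4 outer and 3 inner members: filled circles for outer row bands, open circles for inner row bands, red bars for all members, with the number tested in brackets. The dashed and dotted lines are the medians of all tested genes in the outer (-0.35) and inner (1.04) bands; ribosomal proteins and MHC class I lie furthest to the left of both.

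Markers of neutrophils, monocytes, T cells, B cells, natural killer cells, red cells and platelets each gave both rises and falls. Of 10 tested neutrophil genes 4 rose and 2 fell, and all 4 rises had inner probes and both falls outer probes. Over all genes, 44.9% of those in the inner bands rose and 32.2% of those in the outer bands fell. Redone without day 0 replicate 4, 4 neutrophil genes rose and 5 fell of 15. MMP25 and NCF1, a subunit of the NADPH oxidase, rose, NCF1 by 2.89 ± 0.45. The brightest probe of S100A12 had levels of 2.94, 3.06, 3.01 and 1.47 at day 0 and was at the floor on all untreated arrays. Its probes disagreed, with a log2 difference of -5.95 in the outer and 2.08 in the inner bands. S100A12 is therefore not among the named genes. CSF3R, the receptor for granulocyte colony-stimulating factor, had levels of -0.49, -0.43, -0.27 and -1.44 at day 0 and was at the floor on 3 untreated arrays and at -0.90 on replicate 4. The median of the list (0.22) fell below 0 under 6 of 11 other scalings and floors. Summed scaled signal of its 26 genes was 4.45 to 10.5 at day 0 and 5.50 to 7.35 in untreated blood. Of monocyte genes, all 8 tested in the outer bands, 4 fell and 1 rose (median -1.71), against 6 falls and no rise of 12 when redone. SIRPA, an inhibitory receptor of myeloid cells, was at least 16.9-fold lower and AIF1 fell by 2.90 ± 0.22, and CD14, the lipopolysaccharide co-receptor, was at the floor on all day 0 arrays and between -3.17 and -0.86 on the untreated ones, without passing. The summed signal of the 20 monocyte genes was 4.13 to 6.67 at day 0 and 1.09 to 2.82 in untreated blood, with no overlap. Of all single tested genes, 55.5% did not overlap either. The 100 brightest probes also carried less of the net signal on every untreated array (14.9% to 23.2% against 43.6% to 46.8%). The part of this in the sums of lists was not tested.

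Of T cell genes 4 rose and 3 fell among 9 tested (median -0.96), and 3 rose and 7 fell of 19 when all steps were redone without day 0 replicate 4. Beside the T and B cell counts, 29.1% of all tested genes rose and 18.9% fell, and 11.8% and 22.2% when redone. The summed signal of the 33 T cell genes was 6.91 to 11.95 at day 0 and 4.31 to 4.71 in untreated blood, with no overlap. As 55.5% of all single tested genes did not overlap, this is not shown to be particular to T cell genes. The T cell receptor components CD3E and CD247 were at least 9.89-fold and 18.1-fold lower. CD3E had levels of -0.31, -0.36, -0.13 and -1.72 on the day 0 arrays and was not well above background on any untreated array. LAT, the adaptor downstream of that receptor, rose by 2.58 ± 0.70 and TBX21, a factor of type 1 helper cells, by 2.30 ± 0.28; 3 falls and 1 rise were among 6 outer genes and 3 rises among 3 inner genes. B cell genes gave 4 rises and 3 falls of 10 (median -0.13), but 3 rises and 8 falls of 15 when redone without day 0 replicate 4 (median -1.24). The summed signal of the 25 B cell genes was 4.33 to 5.24 at day 0 and 4.67 to 8.10 in untreated blood, so the groups overlapped. CD79A, of the B cell receptor, had levels of 0.54, 0.57, 0.73 and 1.67 at day 0 and of -0.52, -0.54, -0.48 and -0.05 in untreated blood, a log2 difference of -1.27 ± 0.28 (adjusted p = 0.00646), which turned positive with row bands scaled apart (0.40) and on the processed signal (1.96). IRF4 rose by 2.78 ± 0.34 and XBP1, a plasma cell factor, fell by 2.01 ± 0.30. PTPRC, the pan-leukocyte CD45 gene, was above background on 3 day 0 arrays and 1 untreated array and was not tested.

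Natural killer genes gave 1 rise, the chemokine CCL5 (at least 20.1-fold), and 1 fall, GNLY, a cytolytic granule protein (at least 12.4-fold), of 6 tested. With the floor applied to both groups their log2 differences were 1.34 and -3.03, and on the processed signal 0.87 and -0.69. Of 5 tested erythroid genes 2 fell and 1 rose. HBB, adult beta globin, had levels of 2.18, 2.27, 2.40 and 1.27 at day 0 and of 2.40, 4.05, 1.98 and 0.48 in untreated blood, so the groups overlapped. HBA was at the floor on 1 array of each group and ranged from -0.58 to 3.50 on the others. AHSP, the alpha globin chaperone, rose by 1.52 ± 0.38 and BNIP3L, which clears mitochondria from young red cells, was at least 5.23-fold lower. The platelet genes NRGN and THBS1, thrombospondin, rose by 2.50 ± 0.19 and 1.89 ± 0.34, and F13A1, a clotting factor subunit, was at least 27.4-fold lower. The single eosinophil gene tested, ALOX15, an arachidonate lipoxygenase, fell by 1.83 ± 0.40. Redone without day 0 replicate 4, natural killer genes gave 1 rise and 2 falls of 10, erythroid genes 2 falls and no rise of 7 and platelet genes 2 rises and 1 fall of 7. Over all tested genes 29.1% rose and 18.9% fell, and 11.8% and 22.2% when redone.

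Genes that respond to stimulation moved less evenly. Of 10 immediate-early genes 4 rose and 2 fell (median 1.02), with all 4 rises among 5 inner genes, where 44.9% of all genes rose. Redone without day 0 replicate 4 there were 4 rises and 3 falls of 14 (median 0.18). EGR2, an early growth response factor, was at the floor on all day 0 arrays and had levels of -1.25, -0.79, -0.49 and -0.83 in untreated blood, a log2 difference of 2.49 ± 0.15. NR4A1, an orphan nuclear receptor, rose by 2.65 ± 0.34 and KLF6, a zinc-finger factor, was at least 11.3-fold lower. Of inflammatory cytokines and chemokines 4 of 6 tested rose, all 6 with inner probes, where 44.9% of all genes rose. As 5 of the 6 entered the test only through the untreated arrays, where they are high, the count does not show a direction of the list, and redone without day 0 replicate 4 it gave 3 rises and 1 fall of 7. IL10, an anti-inflammatory cytokine, was at the floor on all day 0 arrays and had levels of -0.87, -1.03, -0.41 and -0.17 in untreated blood, a log2 difference of 2.71 ± 0.19. Of 29 such genes on the array, 24 were dim on every day 0 array and 18 on every untreated array. The same count over all genes is not given here. Over all inner probes, 4.53% to 13.3% were above background on the day 0 arrays and 11.4% to 18.7% on the untreated arrays. Toll-like receptor genes gave 2 falls, TLR6 (-2.16 ± 0.63) and the kinase IRAK1 (at least 5.36-fold lower), and 1 rise of 9, and the TLR6 call was lost when day 0 replicate 2 or 3 or untreated replicate 1 or 3 was left out (adjusted p = 0.053 to 0.061). NF-kB genes gave 3 falls and 1 rise of 6, led by the inhibitor NFKBIA, which fell by 1.83 ± 0.27, and BIRC3, at least 5.24-fold lower. NFKBIA is also a target of glucocorticoids, and of that list of 4 tested genes 1 fell and 1 rose. Redone without day 0 replicate 4, falls and rises were 4 and 0 of 17 in the toll-like receptor list, 6 and 0 of 11 in the NF-kB list and 3 and 1 of 8 in the glucocorticoid list. Over all tested genes 18.9% fell and 29.1% rose, and 22.2% and 11.8% when redone.

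Beside the lists that follow, 18.9% of all tested genes fell and 29.1% rose, and 22.2% and 11.8% when redone without day 0 replicate 4. The counts of the interferon, annexin and galectin and cell cycle lists lie near the first 2 shares. Of 8 interferon-stimulated genes 2 fell and 1 rose, MX1, an antiviral GTPase, being at least 7.02-fold lower. Of antimicrobial genes 4 of 7 fell and 1 rose (median -2.28): LYZ, lysozyme, had levels of 0.92, 1.09, 0.92 and 0.44 at day 0 and of -1.67, -1.36, -1.01 and -1.93 in untreated blood, and LCN2, the iron-scavenging lipocalin, rose by 2.09 ± 0.18. Annexins and galectins gave 3 rises and 2 falls of 8: LGALS12 and ANXA6 rose by 2.49 ± 0.37 and 2.79 ± 0.35, LGALS1 fell by 2.71 ± 0.34 and LGALS3BP was at least 7.68-fold lower. Of 7 cell cycle genes 2 fell and 1 rose: CCND3, a D-type cyclin, was at least 32.3-fold lower and RRM1, of ribonucleotide reductase, at least 4.83-fold lower, while CCND2, its sister cyclin, rose by 1.96 ± 0.19. WNT5A, a Wnt ligand, and LEF1, a Wnt-responsive factor, rose by 3.15 ± 0.07 and 2.12 ± 0.41, the 2 calls among 5 tested genes of that pathway. The clock list had 2 tested genes, DBP, which rose, and 1 that fell. The medians of the interferon, annexin and galectin, cell cycle, Wnt and clock lists changed sign under at least 3 of 11 other scalings and floors. Redone without day 0 replicate 4, falls and rises were 4 and 0 of 19 in the interferon list, 5 and 1 of 12 in the antimicrobial list, 3 and 3 of 12 for annexins and galectins, 3 and 3 of 10 for the cell cycle, 1 and 2 of 8 for the Wnt pathway and 1 and 1 of 4 for clock genes.

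Genes listed as markers of tissues other than blood, some of which blood cells may also express, had a higher summed signal on the untreated arrays. Of 43 such genes on the array, 4 had a probe above background on all day 0 arrays and 8 on all untreated arrays. In all, 10 were tested and 8 rose, 7 of them among 8 inner genes, where 44.9% of all genes rose. Of the 10, 6 entered the test only through the untreated arrays, where they are high, and all 6 are among the rises, so this count partly restates the filter. Without day 0 replicate 4, all steps redone, 7 of 11 rose and none fell. KRT14, a keratin of basal skin cells, had levels of -2.86, -3.33, -3.33 and -3.33 at day 0 and of 0.94, 0.18, 0.84 and 0.70 in untreated blood. Its log2 difference was 3.88 ± 0.20 (adjusted p = 5.77e-06, limma), and its probe moved from percentile 43.0 to 99.4 of all probes. NPY, neuropeptide Y, had levels of -3.33, -3.33, -3.33 and -1.43 against -0.33, -0.09, -0.27 and -1.35, a log2 difference of 2.35 ± 0.52 (adjusted p = 0.00700). Day 0 replicate 4 lay just below the lowest untreated array. The other 6 that rose were CSN2, the milk beta-casein (2.09), SERPINA1, a liver antitrypsin (1.86), SFTPC, a lung surfactant protein (1.68), PAEP, the milk beta-lactoglobulin (1.67), SYP, a synaptic vesicle protein (1.64), and MBP, the myelin basic protein (1.33), named after their values were seen. The summed scaled signal of the 43 genes was 0.854 to 4.46 on the day 0 arrays and 7.55 to 10.1 on the untreated arrays. Of them, 33 were dim on every day 0 array against 13 on every untreated array. No such sum or count over all genes is given here. Over all probes of the inner bands, 4.53% to 13.3% were above background on the day 0 arrays and 11.4% to 18.7% on the untreated arrays. The higher sum and count are thus not shown to be particular to these genes. The part of slide, scan day, base composition and array brightness in these rises was not tested.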

How the data were processed

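The 8 arrays were grouped by title. Per the file headers, the authors deposited scanner output of Agilent Feature Extraction (version 10.10.1.1 in the submitters' processing notes), whose columns are intensity values in scanner units; the background-subtracted signal was used, before the multiplicative spatial correction that the software applied on day 0 replicates 2, 3 and 4. A further deposited table gives each group's log2 value for a probe, with scale and centring not stated, and served as an alternative. Control spots (1417 an array) and outlier-flagged spots were left out, leaving 43653 probes. Signals were scaled, floored and filtered as stated in the results, and a gene was represented by its brightest kept probe. Names came from the bovine RefSeq table (assembly ARS-UCD2.0), matching 26903 probes by accession, 6525 by current and 131 by older symbol; 1387 kept the file's symbol and 8707 had none. The array design uses another assembly, so no positions are given. Tests used lmFit and eBayes of limma 3.58.1 (R 4.3.3), two-sided, and exact permutation for array measures. The limma fit was also run on simulated arrays with independent normal errors. It recovered 66% of 100 log2 changes of 1.5 and 87% of 100 log2 changes of 3, with 8 false calls. The floor and the effect of place were not simulated, so this says nothing of their part in the calls. Normexp used median spot signals because the files hold no mean signal.

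Named genes have a symbol (LOC entries excluded), passed, did not overlap, passed without day 0 replicate 4, kept their sign in ranks and with the percentile over all probes, and had no opposing probe: the 10 largest rises and 10 largest falls on all 8 arrays, the 5 largest bounds each way, and up to 2 rises and 2 falls of each list, or the 2 brightest members of a list without any. A few genes that this rule takes are not reported here. Some cell markers were added as checks of the tissue. The members and lists were chosen with earlier results of these data known. With 4 arrays a group, their number limits the precision. Tables were handled with Python 3.11.15 and pandas 2.3.3, and figures drawn with matplotlib 3.10.9.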

Additional observations from a re-analysis of the deposited data

Results flagged for a closer look

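In 37 of 127 groups of 4 arrays in which a named gene was above background throughout, 1 array lay far from the other 3 by Dixon's rule at the 95% level, which chance alone flags in about 5% of groups. Of these, 32 were day 0 replicate 4, the dimmest array, at log2 levels given here with the median of the other 3 in brackets. It was low in 24: ALDOA -2.02 (-0.19), ALOX15 -2.74 (-1.01), BIRC3 -2.01 (-1.39), BOLA-DQB1 -0.14 (1.24), BOLA-NC1 2.42 (4.32), CCND3 0.65 (1.20), CD247 -0.34 (0.46), CD3E -1.72 (-0.31), COX1 3.98 (4.98), FASN -2.08 (-0.86), IRAK1 -2.21 (-1.29), JSP.1 1.22 (3.76), LGALS3BP -2.02 (-0.58), MX1 -2.17 (-0.80), PSME2 -0.88 (1.02), RPL21 3.71 (4.52), RPL9 0.15 (2.49), RPLP1 2.01 (4.87), RPS26 -0.25 (2.32), RPSA 0.56 (3.75), SRSF6 -2.66 (-1.46), TKT 0.96 (1.93), TMSB4 0.66 (1.94) and XBP1 -2.27 (-0.98). It was high in 8: ANXA6 -1.97 (-3.33), CD79A 1.67 (0.57), LGALS12 -0.55 (-1.76), MMP25 -1.14 (-3.33), NR4A1 -2.03 (-3.33), PSMB4 1.11 (0.15), SDHAF1 -2.91 (-3.33) and TBX21 -2.41 (-3.33). For SDHAF1 all 3 other day 0 values lay at the floor, and for ANXA6, MMP25, NR4A1 and TBX21 2 of them did. Such values are tied by construction, so the chance rate does not hold for these 5 genes and their distances have no scale. All of these genes still passed when that array was left out of the fit, as the naming rule required.

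On the untreated arrays, replicate 4 stood apart for CD79A (-0.05) and KLHDC7A (2.75), and replicate 2 for NCF1 (0.96), PGK1 (-0.16) and PGM5 (-1.97). For the spike-in control probe, day 0 replicate 1 stood apart at 17966 scanner units. That control, which is outside the gene comparison, read at least 249 units on the day 0 arrays, above its highest untreated value of 19.1.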

How the results depend on the processing

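Leaving out 1 array at a time gave 1577 to 1903 genes past the threshold, against 1886 with all. The difference in spots above background (-2.71 percentage points) ran from -5.92 to -0.998 in the same way. The count was 292 with the median over all probes, 484 when a probe had to be above background on all 8 arrays, 498 on the processed signal, 2882 with each array's own floor and 2945 with a floor of 1 scanner unit. By fold alone, the authors' deposited table gave 2883, of which 2467 were higher and 416 lower in untreated blood. Row bands tested apart, chosen after seeing the data, gave 964 (outer) and 938 (inner); redoing all steps without day 0 replicate 4, also chosen then, gave 2496. Other planned settings stayed within 1.5 times. Residuals of arrays with the same replicate number correlated at -0.12, -0.036, -0.022 and -0.13, so the numbers did not pair the arrays, and a replicate block gave 1650 genes. On the processed signal 16 named genes changed sign: ANXA6 (-1.01), CCND2 (-0.34), CD79A (1.96), DBP (-0.036), EIF4EBP1 (-1.87), EMC3 (-0.36), IL10 (-0.031), INSM1 (-0.061), KLHDC7A (-0.36), LCN2 (-0.81), LEF1 (-0.033), NCF1 (-0.59), NFKBIA (0.11), NR4A1 (-0.41), RPS28 (-0.26) and SDHD (-0.45). CD79A was also positive with row bands scaled apart (0.40). The cause was not tested. Of the other named genes 49 kept their sign there but lost the call, and 30 of 95 kept it; with the median over all probes 52 lost it. No other named gene reversed under the settings tried with limma, where at most 11 lost the call under any other setting. The authors' deposited table gave the same sign for 87 of 95 named genes. Without a filter most genes lay at the floor on all arrays, which makes the spread estimate of that setting unreliable.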
